A study of Homo sapiens with 2 samples.

Results

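Contacts between different autosomes were examined in promoter-capture Hi-C of K562 cells, leaving out 7 chromosome pairs that carry dense contacts (9-22, 9-13, 13-22, 3-10, 6-16, 1-18 and 5-18). The remaining contacts are called scattered pairs here. They were chosen by chromosome and by the number of listed pairs per chromosome pair. Each is an unordered pair of restriction fragments with ends on different chromosomes of 1 to 22. There were 5456 of them among the 138160 fragment pairs of both lists together. The DMSO list held 2774 of 84049 pairs, and the ponatinib list 2705 of 91305. The 7 chromosome pairs left out have high numbers for their size in these same lists, so the low density of what remains is given by the choice and is described without a test.

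K562 is an established human line from chronic myelogenous leukaemia that carries the BCR-ABL1 fusion. Cells received the vehicle DMSO, or 100 nM of the ABL kinase inhibitor ponatinib, for 24 h, and the design asks which promoter contacts differ after treatment. Both groups share the cell line, the medium, the HindIII digestion and the RNA capture probes, and each is 1 library of 1 line. With nothing to replicate either treatment, differences between the lists could not be tested. The files give no read counts, so the depth is unknown. Intervals are 95% intervals that cover counting error only and take pairs as independent.

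In promoter-capture Hi-C, crosslinked chromatin is cut and ligated, and probes pull out the ligation products that hold a promoter fragment, called the bait. Chromosomes occupy separate territories in the nucleus, so most ligation products join parts of the same chromosome. A pair between chromosomes can come from chromatin that touches in the nucleus, from a rearrangement that has joined the chromosomes, or from ligation between molecules that were never in contact. A list of pairs does not by itself separate these.

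Promoter sequences are given for 4 genes whose bait fragments stand out below, on the strand of the gene, from 250 bases before the start to 50 after it (RefSeq, GRCh38.p14). ETNK1, which encodes an ethanolamine kinase (chr12:22624921-22625220, plus strand), and RPAP3, which encodes an RNA polymerase II-associated protein (chr12:47705981-47706280, minus strand), lie on baits with many scattered pairs to a single chromosome. CCDC32 (chr15:40564993-40565292, minus strand) lies on the bait of 2 of the highest scoring pairs. CDA, which encodes cytidine deaminase (chr1:20588847-20589146, plus strand), lies on the bait whose partners are on the most chromosomes. Capitals mark the HindIII site AAGCTT, where the fragments were cut.
ETNK1: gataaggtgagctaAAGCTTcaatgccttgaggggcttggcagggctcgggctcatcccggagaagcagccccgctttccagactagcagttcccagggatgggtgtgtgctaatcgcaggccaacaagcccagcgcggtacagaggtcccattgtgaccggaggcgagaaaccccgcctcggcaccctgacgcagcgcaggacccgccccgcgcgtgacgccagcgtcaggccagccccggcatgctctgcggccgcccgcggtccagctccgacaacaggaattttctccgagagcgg
RPAP3: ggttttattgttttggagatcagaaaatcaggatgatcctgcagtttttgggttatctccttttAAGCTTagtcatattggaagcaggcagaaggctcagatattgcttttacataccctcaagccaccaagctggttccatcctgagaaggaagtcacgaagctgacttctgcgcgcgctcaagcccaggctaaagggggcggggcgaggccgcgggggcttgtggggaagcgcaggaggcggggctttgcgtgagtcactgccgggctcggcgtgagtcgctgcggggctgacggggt
CCDC32: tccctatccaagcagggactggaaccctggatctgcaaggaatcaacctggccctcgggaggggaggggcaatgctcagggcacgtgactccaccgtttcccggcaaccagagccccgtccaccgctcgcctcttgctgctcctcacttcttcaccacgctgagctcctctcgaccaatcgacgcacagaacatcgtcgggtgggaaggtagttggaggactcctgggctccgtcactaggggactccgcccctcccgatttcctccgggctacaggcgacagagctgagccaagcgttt
CDA: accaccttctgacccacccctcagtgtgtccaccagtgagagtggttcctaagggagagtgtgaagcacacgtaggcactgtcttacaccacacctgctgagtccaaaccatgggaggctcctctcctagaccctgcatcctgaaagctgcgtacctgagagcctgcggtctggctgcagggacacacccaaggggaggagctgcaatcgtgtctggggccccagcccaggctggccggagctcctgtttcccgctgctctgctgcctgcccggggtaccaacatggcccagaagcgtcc

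The ETNK1 and RPAP3 windows each hold 1 HindIII site, and that site is the edge of the listed fragment. The ETNK1 start site lies 235 bp from it and the RPAP3 start site 181 bp. The CCDC32 and CDA windows hold no site, and their start sites lie 430 and 940 bp inside the fragment. Over all promoter windows, 589 HindIII sites fell within or at the edge of a listed bait, and 589 of them were exactly at an edge (100%, 99.4 to 100%). The fragment coordinates of the lists thus fit the sequence of this build at every site that could be looked up.

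Scattered pairs were a smaller part of the ponatinib list than of the DMSO list. They made up 3.30% of the DMSO list (3.18 to 3.42%) and 2.96% of the ponatinib list (2.85 to 3.07%), a difference of -0.338 percentage points (-0.501 to -0.175). Their number was 0.975 times that of DMSO (0.924 to 1.03). Pairs within a chromosome, 77694 and 84508 in number, went the other way with a ratio of 1.09 (1.08 to 1.10), and the left-out chromosome pairs, 3233 and 3734, had a ratio of 1.15 (1.10 to 1.21). The interval for scattered pairs overlaps neither of these. With chromosome X included, scattered pairs were 43.7% of the DMSO contacts between chromosomes (42.4 to 44.9%) and 39.8% of those in ponatinib (38.6 to 41.0%).

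The scattered pairs of the lists were almost entirely different pairs. Only 23 were identical in both, which is 0.829% of the DMSO pairs (0.526 to 1.24%) and 0.850% of the ponatinib pairs (0.540 to 1.27%). Of pairs within a chromosome, 45.4% of the DMSO list and 41.7% of the ponatinib list were shared. Of the left-out chromosome pairs, 57.1% and 49.4% were. Looser matching raised the number but left most pairs without a counterpart. With both ends allowed to lie within 100 kb of each other, 66 DMSO pairs (2.38%, 1.84 to 3.02%) had a counterpart in ponatinib, and within 1000 kb 112 did (4.04%, 3.34 to 4.84%). The same 100 kb rule matched 96.3% of the DMSO pairs of the left-out chromosome pairs, and 1000 kb matched 97.6%.

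Sharing rose with the score. The score is a value that the authors gave each pair, with a floor of 5 in these lists. Of the 2116 DMSO scattered pairs below a score of 7, which are 76.3% of them, 1 was also in the ponatinib list (0.0473%, 0.00120 to 0.263%). Of 549 pairs from 7 to 10, 6 were shared (1.09%, 0.402 to 2.36%). Of 91 pairs from 10 to 20, 8 were shared (8.79%, 3.87 to 16.6%), and at 20 and above 8 of 18 were (44.4%, 21.5 to 69.2%). The ponatinib list gave 2 of 2063 below 7 and 10 of 19 at 20 and above (52.6%, 28.9 to 75.6%). Pairs within a chromosome were shared far more often at the same scores. In DMSO 30.8% of those below 7 (30.3 to 31.2%) and 97.3% of those at 20 and above (96.2 to 98.1%) were in both lists.

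**Figure D1:**
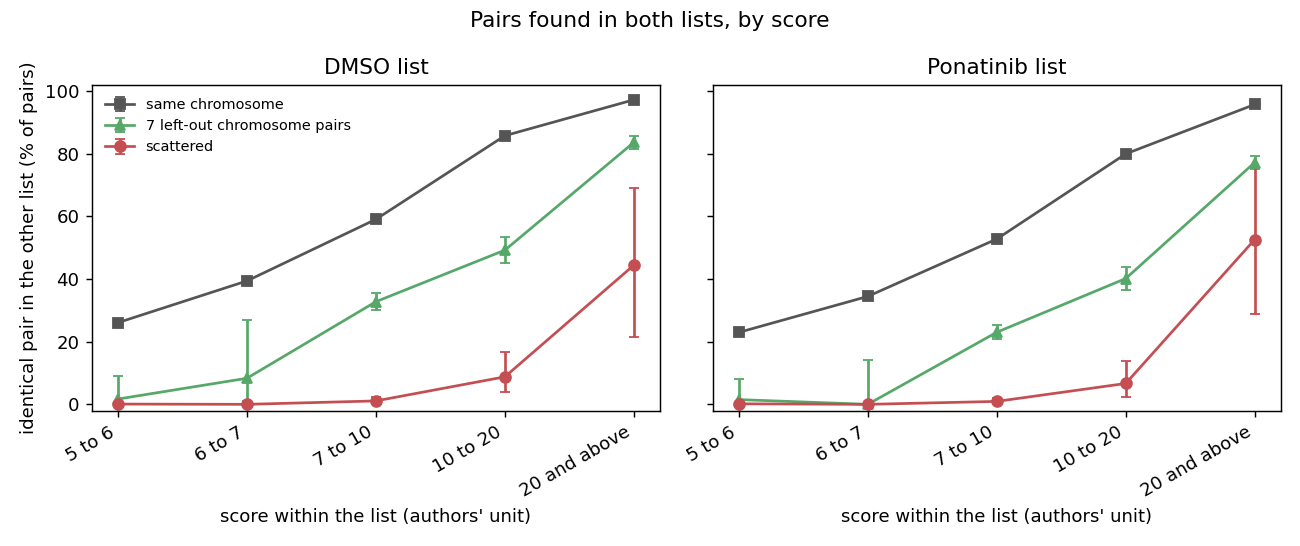
Share of pairs (y axis, percent) with the identical pair in the other list, by score (x axis, authors' unit), for the DMSO list (left) and the ponatinib list (right). Points are shares and bars 95% exact binomial intervals, in red for scattered pairs, grey for pairs within a chromosome and green for the left-out chromosome pairs. In DMSO the scattered pairs run from 0.0861% at scores of 5 to 6 to 44.4% at 20 and above, below the grey points at every score.

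Most scattered pairs scored just above the floor. The median score was 6.19 in DMSO (6.15 to 6.24) and 6.09 in ponatinib (6.02 to 6.16). Scores ran from 5.05 to 103.8 in DMSO and from 5 to 145.58 in ponatinib. Pairs within a chromosome had medians of 6.38 and 6.47 and a longer upper tail: 13.3% and 14.7% of them scored 10 or more, against 109 scattered pairs in each list (3.93%, 3.24 to 4.72%, and 4.03%, 3.32 to 4.84%). The left-out chromosome pairs had medians of 15.8 and 15.5. Some scores were held by many pairs. In DMSO 78 pairs scored 5.34 (2.81%) and in ponatinib 109 scored 5.86 (4.03%), while no single value was held by more than 0.560% of the DMSO pairs within a chromosome. Ties were far more common among the left-out chromosome pairs, of which 34.2% scored 8.75 in DMSO and 34.3% scored 8.52 in ponatinib. The definition of the score is not given in the sources used here, so scores are compared within a list and the scores of a pair in both lists are set side by side only as a description.

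The 23 shared pairs had median scores of 12.68 in DMSO and 12.79 in ponatinib. In ponatinib 12 scored higher and 11 lower, so there was no common direction. The highest in both lists, 103.8 in DMSO and 145.58 in ponatinib, joined a bait in TMEM242 on chromosome 6 (chr6:157290196-157298383) to a fragment overlapping LDHAL6B, a lactate dehydrogenase-like gene, and MYO1E, a class I myosin gene, on chromosome 15 (chr15:59207617-59208072). Also high in both were 2 adjacent fragments in CBX3, which encodes the heterochromatin protein HP1 gamma. They were each paired with the CCDC32 bait, whose promoter is printed above, with scores of 62.45 and 53.62 in DMSO and 68.91 and 86.56 in ponatinib. Both were among the 10 highest of each list. Of the 10 highest in each list, 6 were shared.

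Other high scores were in a single list. A fragment in DNAH5, an axonemal dynein gene, and the bait of NTSR1, a neurotensin receptor gene, scored 30.5 in DMSO and was not listed in ponatinib. The pair of LINC02142 on chromosome 5 and PNPLA3, which encodes a lipid droplet protein, on chromosome 22 scored 58.51 in ponatinib and was not listed in DMSO. A bait in AOAH and a fragment in FGF14 scored 32.8 in ponatinib alone. A high score in a list was therefore no guarantee of a counterpart.

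A small part of the scattered pairs was not scattered along the chromosomes. When pairs were linked wherever both ends lay within 1 Mb of those of another pair, 5212 of the 5456 stood alone and 43 groups had 2 members. There were 11 groups of at least 3, called region pairs below, with 158 pairs. This grouping was chosen after the pairs had been seen. The region pairs held 85 DMSO pairs (3.06% of scattered pairs, 2.45 to 3.78%) and 91 ponatinib pairs (3.36%, 2.72 to 4.11%), but 18 of the 23 shared pairs. Within them 21.2% of DMSO pairs were shared (13.1 to 31.4%), against 5 of 2689 outside them (0.186%, 0.0604 to 0.433%). Median scores within them were 10.95 in DMSO and 10.69 in ponatinib, and outside them 6.19 and 6.07.

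Groups formed from 1 list were then looked up in the other. Not all of the 11 region pairs reach 3 pairs within a single list. Of the 8 groups of at least 3 formed from DMSO pairs only, 8 had a ponatinib pair within 1 Mb at both ends, and of the 9 formed from ponatinib pairs 9 had a DMSO pair there. Of groups of 2, 2 of 10 and 2 of 13 did. Of single pairs, 29 of 2674 in DMSO (1.08%, 0.727 to 1.55%) and 28 of 2591 in ponatinib (1.08%, 0.719 to 1.56%) did. The ratio of ponatinib to DMSO pairs was 1.07 within region pairs (0.788 to 1.46) and 0.972 outside them (0.921 to 1.03), so both intervals include 1.

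**Figure D2:**
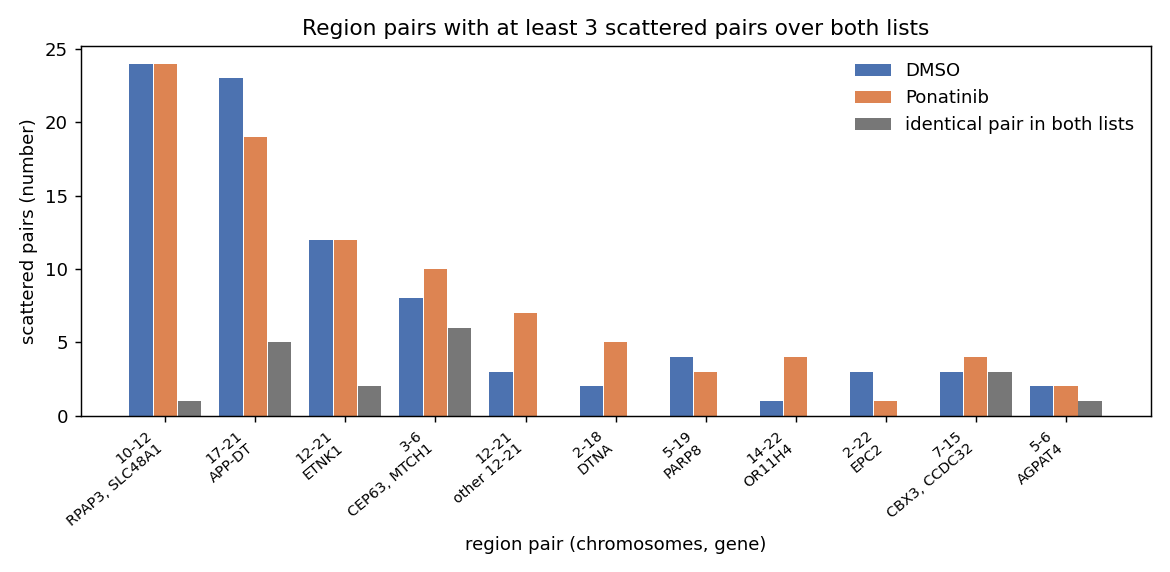
Number of scattered pairs (y axis) in each of the 11 region pairs (x axis, by chromosomes and some genes of the region), in DMSO (blue), in ponatinib (orange) and identical in both (grey). The region pair of chromosomes 10 and 12 has 24 pairs in each list and 1 identical, and that of CEP63 has the most identical pairs, 6.

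The region pair with the most members joined chromosome 10 (chr10:78113528-80216298) to chromosome 12 (chr12:45925091-47840536). It had 24 pairs in DMSO and 24 in ponatinib, of which 1 was identical. Its chromosome 12 baits hold the starts of RPAP3, SLC48A1, which encodes a haem transporter, HDAC7, a class IIa histone deacetylase gene, and the amino acid transporter genes SLC38A1 and SLC38A2. Its chromosome 10 baits hold the starts of the surfactant protein gene SFTPA2 and of ZCCHC24. The RPAP3 bait (chr12:47705331-47706211) had 7 DMSO and 4 ponatinib pairs, all 10 different partners on chromosome 10. The SFTPA2 bait (chr10:79557427-79562428) had 5 and 5, all on chromosome 12. The bait in RAPGEF3 and SLC48A1 (chr12:47736641-47757497) had 2 in DMSO and 6 in ponatinib. Contacts thus ran from baits on both chromosomes over about the same spans, 2103 kb on chromosome 10 and 1915 kb on chromosome 12.

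The second joined chromosome 17 (chr17:15330572-16606082) to chromosome 21 (chr21:25417870-26195882), with 23 pairs in DMSO, 19 in ponatinib and 5 identical. Its chromosome 21 baits hold the starts of APP, the amyloid precursor gene, of ATP5PF, a subunit of ATP synthase, of the ETS factor gene GABPA and of the mitochondrial ribosomal protein gene MRPL39. The fragment with the most scattered pairs of all, a bait in APP-DT, the divergent transcript of APP (chr21:26188036-26195882), had 15 in DMSO and 12 in ponatinib. Of its 22 different partners 17 were on chromosome 17, and the 5 identical pairs were all among them. The shared pairs of this bait scored 8.75 to 15.81 in DMSO and 8.52 to 15.5 in ponatinib. Its highest score was 30.55 with a fragment in ZNF287 in DMSO and 45.3 with a fragment of chr17:16596918-16604175 in ponatinib, and neither of these pairs was in the other list.

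The third joined the ETNK1 region of chromosome 12 (chr12:22576199-22864606) to chromosome 21 (chr21:24134694-26195882), with 12 pairs in each list and 2 identical. The ETNK1 bait (chr12:22624936-22627071) supplied 10 of them in DMSO and 10 in ponatinib, and all of its 18 different partners were on chromosome 21. It had only 2 pairs within chromosome 12 in DMSO and 3 in ponatinib. The pair with chr21:24258248-24263815 scored 11.12 in DMSO and 20.76 in ponatinib, and that with a fragment in LINC01684 12.31 and 12.79. A nearby region pair of the same chromosomes (chr12:24212316-25022297 and chr21:24493776-26187547) had 3 pairs in DMSO and 7 in ponatinib, none identical. The LINC00158 bait supplied 5 different pairs to chromosome 12, 1 of them in DMSO and 4 in ponatinib.

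The fourth joined 2 adjacent fragments in CEP63, a centrosomal protein gene on chromosome 3 (chr3:134577393-134580693), to 8 baits of chromosome 6 (chr6:36635013-37051038). These baits hold the starts of CPNE5, PPIL1, C6orf89, PI16 and MTCH1. It had 8 pairs in DMSO and 10 in ponatinib, and 6 of its 12 different pairs were identical in both lists. The scores of an identical pair differed between the lists. The larger CEP63 fragment and the PI16 bait scored 93.7 in DMSO and 20.22 in ponatinib, and the same fragment and the MTCH1 bait 12.68 in DMSO and 63.72 in ponatinib. PI16 encodes a peptidase inhibitor and MTCH1 a mitochondrial carrier homologue, and their baits lie in the same interval of chromosome 6. Neither CEP63 fragment is a bait, and neither was listed as a partner of a chromosome 3 bait in DMSO or ponatinib.

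The other region pairs were small. CBX3 on chromosome 7 (chr7:26206856-26223001) and the baits of CCDC32 and RPUSD2, a pseudouridine synthase domain gene, on chromosome 15 (chr15:40558216-40572134) had 3 pairs in DMSO and 4 in ponatinib, with 3 identical. The AGPAT4 bait, at an acyltransferase gene (chr6:161273010-161274636), had 2 and 2 with chromosome 5, and the 1 identical pair scored 23.34 in DMSO and 12.07 in ponatinib. Chromosome 2 had 2 and 5 with 4 baits of chromosome 18, which hold the starts of DTNA, GALNT1 and MAPRE2. A region of chromosome 5 (chr5:50664914-52016631) had 4 and 3 with a stretch of chromosome 19 (chr19:24339904-24384239). These came from 5 chromosome 5 baits, and the only protein-coding start found on them was that of PARP8. A region of chromosome 14 (chr14:19875379-20251364) had 1 and 4 with chromosome 22 (chr22:15626515-15631640). These came from 4 chromosome 14 baits, and the only such start was that of the olfactory receptor gene OR11H4. The chromosome 22 fragment at chr22:15626515-15627483 overlaps the pseudogene NF1P6. Finally, 2 fragments of chromosome 2, of which 1 is the EPC2 bait, had 3 and 1 with chromosome 22 (chr22:22726201-23152974). Over both lists the EPC2 bait itself had 3 different pairs with chromosome 22. The chromosome 22 interval ends 27.5 kb before BCR. None of these 4 had an identical pair.

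Only 5 identical pairs lay outside region pairs, and the TMEM242 pair above is the highest of them. A fragment in CDKL4, a kinase gene, and a bait in LOC102723341 scored 30.5 in DMSO and 32.68 in ponatinib. The baits of EPC2, an enhancer of polycomb homologue, and NUP214, a nuclear pore gene next to ABL1, scored 7.88 and 28.21. A fragment in AK2P1 and a bait at chr2:31804505-31812066 scored 13.71 and 5.2, and a bait in RPS7P5 and a fragment in SGCD 8.64 and 8.07. AK2P1 and RPS7P5 are pseudogenes, as is NF1P6 above. How reads of near-identical copies were placed is not given in the sources used here, so the position of these ends is uncertain. Outside region pairs 66 DMSO pairs scored 10 or more and 3 were shared, and 59 ponatinib pairs did and 3 were shared.

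Recurrence of single fragments was low. The scattered pairs used 9811 different fragments, 4573 of them baits, and 8968 fragments (91.4%) had 1 pair in both lists together. Only 45 had at least 4 different pairs and 19 at least 5. The 10 most recurrent fragments took 60 DMSO pairs (2.16%, 1.65 to 2.78%) and 57 ponatinib pairs (2.11%, 1.60 to 2.72%). Of the 45 with at least 4, 22 lay in region pairs, while 16 had partners on at least 4 chromosomes. A fragment can be in both sets, as the APP-DT bait is, with partners on 4 chromosomes.

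The CDA bait (chr1:20588138-20590037) had partners on the most chromosomes. It had 6 pairs in DMSO and 6 in ponatinib, 12 different partners on 9 chromosomes and none identical. It had no pair within chromosome 1 in DMSO and 2 in ponatinib. The C11orf87 bait had 4 and 2 pairs on 5 chromosomes. The bait that holds the starts of HMMR, a hyaluronan-mediated motility receptor gene, and NUDCD2 had 2 and 3 on 5 chromosomes. The MIR155HG bait, host of the microRNA miR-155, had 3 and 3 pairs, 4 of them to chromosome 17 and the others to chromosome 12.

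**Figure D3:**
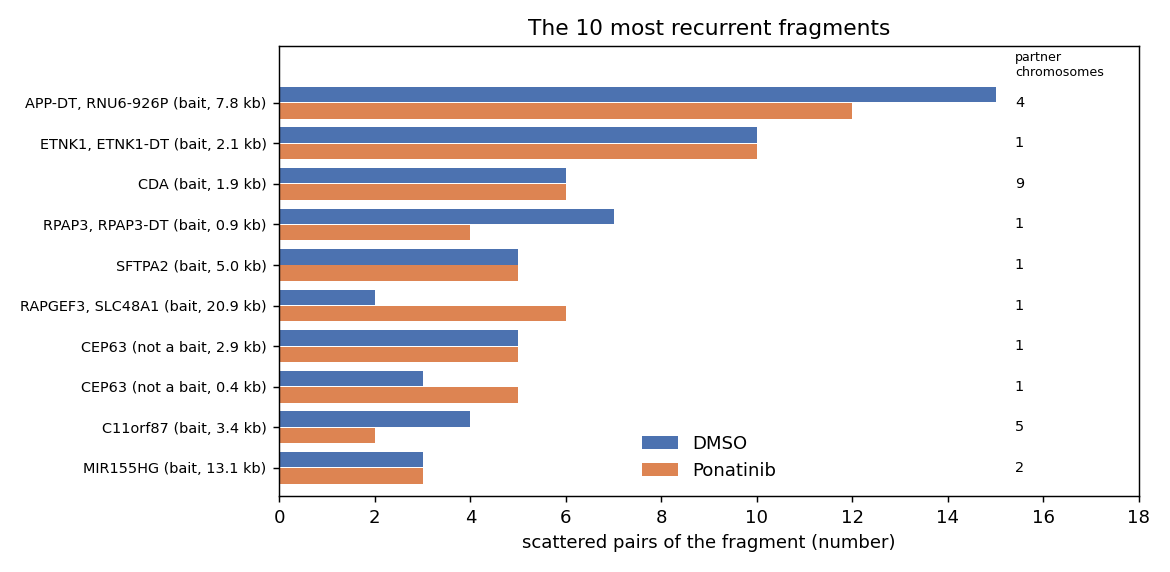
Number of scattered pairs (x axis) of the 10 fragments with the most over both lists (y axis, with the genes on the fragment, whether it is a bait, and its length), in DMSO (blue) and ponatinib (orange). The number of partner chromosomes stands at the right. The CDA bait has partners on 9 chromosomes, while ETNK1, RPAP3 and SFTPA2 have partners on 1.

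A fragment was called different at a ratio of at least 2-fold with 1 added to both numbers, and 0 of the 6 fragments with at least 10 pairs over both lists were (0%). Among the 24 with at least 5, a limit chosen later, 6 were (25%), 5 with more in ponatinib (20.8%) and 1 with fewer (4.17%). The bait that holds the starts of MYO9A and SENP8, an unconventional myosin and a NEDD8 protease gene, had 0 pairs in DMSO and 5 in ponatinib, on 5 chromosomes. The bait of the zinc finger gene ZNF714 had 5 in DMSO and 0 in ponatinib. Baits of SLC48A1, DTNA and LINC00158 each had 1 in DMSO and 4 in ponatinib, and the bait in RAPGEF3 and SLC48A1 had 2 and 6. With numbers this small a difference of a few pairs makes the call, and none has a replicate.

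Scattered pairs were spread thinly over the baits. Of the autosomal baits in a list, 2532 of 15711 had a scattered pair in DMSO (16.1%, 15.5 to 16.7%) and 2463 of 15818 in ponatinib (15.6%, 15 to 16.1%). Of these, 89.6% and 90% had exactly 1. In both lists 422 baits had a scattered pair. They are 16.7% of the baits with such a pair in DMSO (15.2 to 18.2%), against the 14.2% of all baits of either list that had one in ponatinib (13.7 to 14.8%). Among listed baits, one with a scattered pair in a list was thus only slightly more often among those of the other. Captured baits without any listed pair are not counted, and any such baits would lower the 14.2%. Of baits with a scattered pair, 16.1% in DMSO and 15.8% in ponatinib had no pair within their chromosome in that list.

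Among baits with at least 1 contact within their chromosome, those with more such contacts had a scattered pair somewhat more often. In DMSO the share was 12.8% of baits with 1 or 2 such contacts (11.9 to 13.7%) and 17.6% of those with at least 21 (14.7 to 20.8%). In ponatinib it was 12.3% (11.5 to 13.3%) and 16.5% (13.9 to 19.3%). Over all listed baits the median went the other way, with 3 contacts within the chromosome for baits with a scattered pair and 4 for those without, in both lists. A bait without a scattered pair is listed only if it has some other pair, so these medians are not of like sets.

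The partner fragments of scattered pairs lay farther from genes than those of contacts within a chromosome. Of partners that are not baits, 49.5% in DMSO (47.6 to 51.4%) and 50.4% in ponatinib (48.5 to 52.4%) overlapped a protein-coding gene, against 61.2% and 61.1% for partners within a chromosome. Protein-coding gene bodies cover 42.1% of the autosomes, a share of bases that is not the same measure as overlap of a fragment. The median distance to the nearest protein-coding start was 73.7 kb in DMSO (68.3 to 79.3) and 77.9 kb in ponatinib (71.5 to 84.6), and 34.6 kb in both lists within a chromosome. Of pairs within a chromosome, only 4108 of 77694 in DMSO and 5041 of 84508 in ponatinib spanned over 1 Mb. Their partners thus mostly lie near their own bait, a promoter fragment, which by itself keeps them near genes. Partners of pairs over 1 Mb were not measured apart, so no preference of scattered pairs is read from this. Partners were also shorter, with median lengths of 2542 and 2501 bp against 2829 and 2825.5 bp.

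Few scattered pairs joined 2 baits. Promoter-to-promoter pairs, with a bait at both ends, were 79 of the DMSO scattered pairs (2.85%, 2.26 to 3.54%) and 69 of the ponatinib ones (2.55%, 1.99 to 3.22%), a difference of -0.297 percentage points (-1.17 to 0.570). Within a chromosome the share was 20.4% in DMSO and 20.0% in ponatinib, and beyond 1 Mb it was 15.3% (14.2 to 16.5%) and 13.6% (12.7 to 14.6%). The left-out chromosome pairs had 3.28% (2.69 to 3.95%) and 2.68% (2.18 to 3.25%), which overlap the shares of scattered pairs. Listed baits cover 4.93% of the autosomes, a share of length that lies above both shares of scattered pairs.

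Over both lists there were 147 promoter-to-promoter pairs, of which 54 had a protein-coding start at both ends and 2 lay in region pairs. The pair of EPC2 and NUP214 was the only one identical in both lists. After it and LINC02142 with PNPLA3, the highest were CNNM2, a magnesium transport gene, with the testis histone gene H1-7, at 16.12 in DMSO, and NCKAP5 with the olfactory receptor gene OR4D9, at 15.69 in ponatinib. TLCD4 with the autophagy kinase gene ULK2 scored 14.41 and SAXO1 with the folate transporter gene SLC46A1 13.09, both in ponatinib. Of the 2 in region pairs, ETNK1 and MIR155HG scored 9.24 in ponatinib and were not listed in DMSO.

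Larger chromosomes with more baits had more ends of scattered pairs. Over the 22 autosomes the number of ends followed the number of listed baits, with a Spearman correlation of 0.94 in DMSO and 0.95 in ponatinib. Correlations with chromosome length were 0.83 and 0.83, and with the number of protein-coding genes 0.76 and 0.79. With gene density, in genes per Mb, they were 0.04 and 0.07. Totals per chromosome do not show which chromosomes were paired with each other. The non-bait ends followed length, with 0.93 and 0.91, and the bait ends the number of baits, with 0.96 and 0.91. Chromosome 19, the densest in genes at 24.8 per Mb, had 0.973 other ends per Mb in DMSO and 0.836 in ponatinib, close to the medians over chromosomes of 0.975 and 0.898. These correlations describe 22 chromosomes that share the libraries and the capture design.

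Chromosome 21 had the most bait ends for its baits, 33.0 per 100 listed baits in DMSO and 30.9 in ponatinib. The other autosomes ran from 11.4 to 19.8 in DMSO and from 12 to 19.6 in ponatinib. Without the region pairs chromosome 21 still had the highest value, 23 and 20.4. This value still holds pairs of the APP-DT bait, whose partners reach chr17:11332880 and chr12:34407985, beyond the region pairs. Chromosome 17 had the most other ends per Mb, 1.53 and 1.37, or 1.27 and 1.15 without the region pairs. Chromosome 14 had the fewest, 0.589 and 0.571. The order at both extremes was the same in both lists for other ends, while for bait ends the lowest was chromosome 3 in DMSO (11.4) and chromosome 2 in ponatinib (12).

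The number of ends per chromosome differed little between the lists. The ratio of ponatinib to DMSO ends ran from 0.864 on chromosome 2 to 1.08 on chromosome 20. For 21 of the 22 autosomes its interval included 1. Chromosome 2, with 433 ends in DMSO and 374 in ponatinib, was the exception (0.750 to 0.994).

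**Figure D4:**
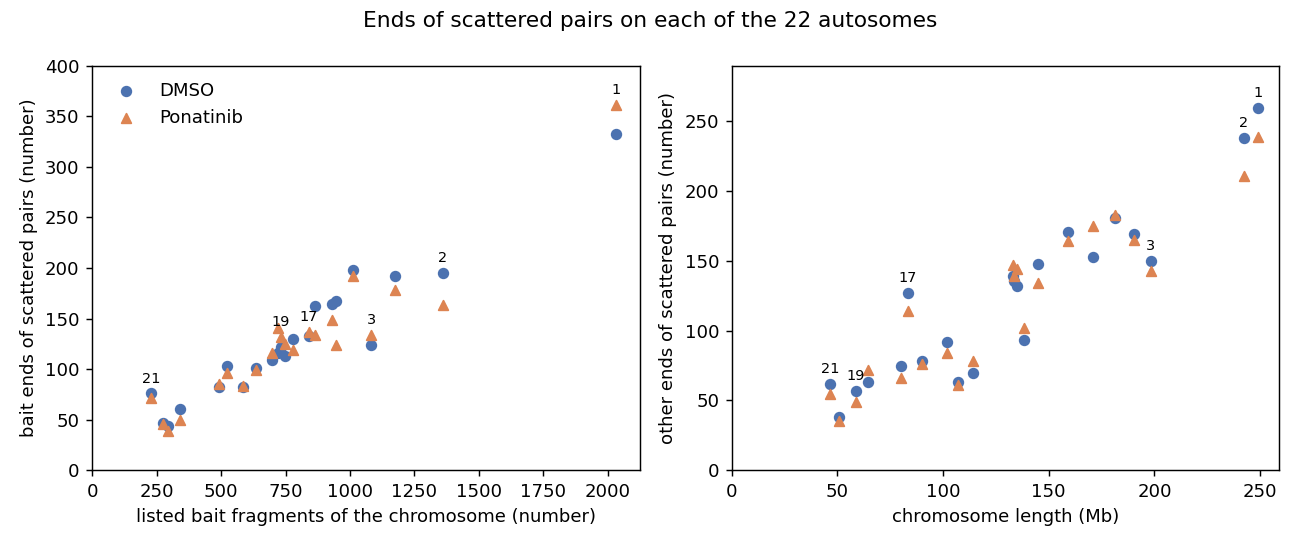
Bait ends of scattered pairs against listed baits (left) and other ends against chromosome length in Mb (right), with 1 point per autosome and list, DMSO as circles and ponatinib as triangles. Numbers mark some chromosomes. Chromosome 21 lies above the trend of bait ends, with 76 and 71 on 230 baits, and chromosome 17 above the trend of other ends, with 127 and 114.

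Between the 224 chromosome pairs the number of scattered pairs rose with size. Pairs were listed for 221 of them in DMSO and 220 in ponatinib, with a median of 9 and up to 61 and 56, both for chromosomes 1 and 2. A proportional number was computed for each from the baits of either chromosome times the length of the other. Its Spearman correlation with the listed number was 0.80 in DMSO and 0.78 in ponatinib, and 0.84 and 0.82 without 10-12, 12-21 and 17-21. Numbers in the lists correlated with each other at 0.84.

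Among the 224 chromosome pairs, 17-21 and 12-21 lay farthest above the proportional number in both lists. Chromosomes 17 and 21 had 38 pairs in DMSO and 23 in ponatinib, 10.8 and 6.69 times the proportional number. Chromosomes 12 and 21 had 25 and 28 (5.32 and 6.11 times), and 10 and 12 had 39 and 41 (2.75 and 2.97 times). Chromosomes 17 and 19, both rich in genes, had 18 and 20 (2.71 and 3.09 times) with no identical pair and no region pair. Also above it, among others, were 2-18 (2.36 and 1.84 times), 16-17 (2.26 and 2.05 times), 7-15 (1.84 and 1.69 times) and 17-20 (1.74 and 1.61 times). Not every pair of small chromosomes was, as 20-22 was at 0.751 and 0.771 times. With larger chromosomes, chromosome 17 was at 0.194 and 0.596 times with chromosome 3 and at 1.01 and 1.30 times with chromosome 1. Just beyond the rule, the left-out chromosome pair with the fewest contacts was 5-18, with 41 and 43 (5.41 and 5.81 times), followed by 1-18 with 54 and 52 (3.87 and 3.82 times) and 6-16 with 59 and 69 (5.32 and 6.38 times). Chromosome pairs 17-21 and 12-21 therefore exceed some left-out ones by this measure. At least 2-fold above the proportional number were 7 chromosome pairs in DMSO and 8 in ponatinib, and at least 2-fold below it 20 and 32.

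**Figure D5:**
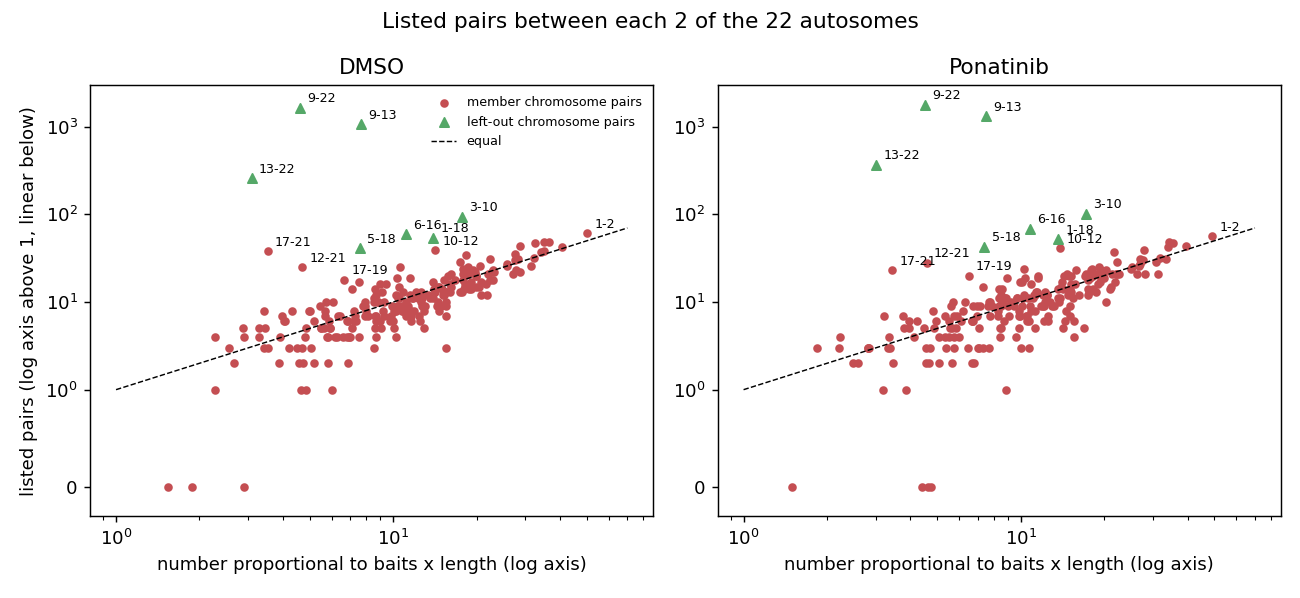
Listed pairs (y axis, log scale above 1) against the number proportional to baits times length (x axis, log scale) for each of 231 chromosome pairs, in DMSO (left) and ponatinib (right). Red points are the 224 members, green triangles the 7 left out, and the dashed line marks equality. Most red points lie along the line. Those of 17-21, with 38 and 23 pairs, and 12-21, with 25 and 28, lie well above it but lower than every triangle.

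Of the 181 chromosome pairs with at least 10 scattered pairs over both lists, 18 differed at least 2-fold (9.94%), 8 with more in ponatinib (4.42%) and 10 with fewer (5.52%). Chromosomes 12 and 16 had 4 pairs in DMSO and 17 in ponatinib, 9 and 10 had 8 and 20, and 9 and 17 had 11 and 24. Chromosomes 5 and 13 had 12 and 3, and 2 and 16 had 13 and 4. Calls in the 2 directions were about equal in number, and none of the chromosome pairs with a large region pair was among them.

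Scattered pairs were also counted for gene families and for genes of this cell type. Genes were placed on a listed bait by either end, which reached 13264 of 19126 protein-coding genes on 11557 baits, and 14.3% of these baits in DMSO and 14.1% in ponatinib had a scattered pair. Replication-dependent histone genes lie in clusters and are transcribed together in histone locus bodies. Of 50 histone gene baits 9 (18%, 8.58 to 31.4%) had a scattered pair in each list, H3C6 in both. Ribosomal protein gene baits had 10.8% (5.08 to 19.6%) and 15.7% (8.61 to 25.3%). Protocadherin baits had 3 and 4 of 32, and HOX baits 4 and 1 of 35, with HOXA2 in both. Over both lists 76 scattered pairs had protein-coding genes of this placement at both ends. For each family or smaller gene list, 0 scattered pairs had members at both ends, and 76 pairs are too few to read this as an absence. HLA genes had no listed autosomal bait.

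The number of scattered pairs per contact within the chromosome varied widely between families. Olfactory receptor baits, at genes of odour detection, had a scattered pair in 37 of 177 cases in DMSO (20.9%, 15.2 to 27.6%) and 26 in ponatinib (14.7%, 9.83 to 20.8%). The DMSO interval lies above the 14.3% of all protein-coding baits and the ponatinib interval includes 14.1%. This is 1 of 13 gene lists. A bait is counted only if it has a listed pair, so the share also depends on how many baits have other pairs. Per 100 ends of pairs within a chromosome olfactory receptor baits had 5.79 and 4.57 scattered pairs, against 2.72 and 2.49 for all protein-coding genes. Keratin and keratin-associated genes of epithelia and hair had 20.8% (12.4 to 31.5%) and 19.5% (11.3 to 30.1%), and 5.84 and 5.18 per 100 ends. Zinc finger genes were at the overall share, 14.9% and 13.9% of 303 baits, with 4.44 and 3.10 per 100 ends. Histone genes had 1.17 and 1.10 per 100 ends, protocadherins 0.796 and 1.02, and HOX genes 0.922 and 0.213, all below the values of all protein-coding genes. Expression was not measured, and a low number of contacts within the chromosome raises this ratio by itself.

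For baits of erythroid and BCR-ABL1 signalling genes the intervals were wide and included the share of all protein-coding baits. Of 33 erythroid baits 8 had a scattered pair in DMSO (24.2%, 11.1 to 42.3%) and 5 in ponatinib (15.2%, 5.11 to 31.9%), and both intervals include the overall share. FECH, the last enzyme of haem synthesis, and LMO2, an adaptor of erythroid transcription factors, had 1 in each list. HBZ, the embryonic alpha-like globin gene, had 1 in DMSO and 0 in ponatinib, KLF1, an erythroid transcription factor gene, had 0 and 1, and HBB, HBG1, TAL1 and BCL11A had 0 in both. MYB and MYC, both transcription factor genes, had 1 and 0. BCR-ABL1 pathway baits had 6 and 4 of 28 with a scattered pair (21.4%, 8.30 to 41.0%, and 14.3%, 4.03 to 32.7%), with FOS and PIK3CA at 1 in each list and SOCS1, an inhibitor of JAK signalling, at 0 and 2. Cell cycle baits had 5 and 7 of 37 with MCM7, a replicative helicase subunit, at 1 and 1. Genes of chromatin architecture had 1 of 21 in each list, with LMNA, the lamin A gene, at 2 and 0 and WAPL, which releases cohesin, at 0 and 1. Liver and neuron genes, as other cell types, had 1 and 2 of 11. GATA2 and BCR were on no listed bait.

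The regions of chromosomes 9, 13 and 22 that hold dense contacts with each other in these lists had scattered pairs with further chromosomes. From ABL1 to NUP214 on chromosome 9 (chr9:130713043-131234663) there were 4 in DMSO and 7 in ponatinib, or 7.67 ends per Mb (2.09 to 19.6) and 13.4 (5.40 to 27.6), against 1.93 and 1.88 over all autosomes. NUP214 had 1 and 3, ABL1 1 and 0. From GPC6 to NALF1 on chromosome 13 there were 23 and 24, or 1.57 ends per Mb (0.995 to 2.36) and 1.64 (1.05 to 2.44), intervals that include the overall value. By baits the chromosome 13 region had 18.5 and 22.2 bait ends per 100 baits, against 16.5 and 16 over all autosomes. It thus lay below the overall value by length and above it by baits. The NALF1 bait had 1 and 3 scattered pairs beside 377 and 434 within its chromosome. From XKR3 to BCR on chromosome 22 there were 27 and 14, or 4.13 (2.72 to 6.01) and 2.14 (1.17 to 3.59) per Mb. Counted by baits, this region had 22.4 bait ends per 100 baits in DMSO and 8.96 in ponatinib, against 16.5 and 16 over all autosomes, so in ponatinib it lay above the overall value by length and below it by baits. The XKR3 bait had 0 in both.

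Motifs in promoter windows were counted on baits with a scattered pair and on other listed baits. HindIII sites (AAGCTT) were in 3.43% of 3438 promoter windows on baits with a scattered pair (2.85 to 4.10%) and in 3.72% of 9516 on other listed baits (3.35 to 4.12%), and in 5.29% of all 21156 windows. The GC box GGGCGG was in 61.5% (59.9 to 63.2%) and 64.2% (63.2 to 65.1%), against 56.6% of all. It was slightly less frequent on baits with a scattered pair, and the intervals just miss each other. A gene or bait can have several windows that share sequence, while the intervals take windows as independent. They are therefore too narrow, and no difference is read from them. The GATA motif AGATAA was in 6.08% and 6.64% (7.89% of all), and CCAAT in 35.2% and 33.6% (34.4% of all). Motifs were searched on both strands, each by itself, with overlaps kept. Median GC content was 63.7% (63.3 to 64.3%) and 64.3% (64.0 to 64.7%). Of the 4 printed windows, ETNK1 holds 2 GC boxes, RPAP3 and CCDC32 1 each and CDA none, and RPAP3 alone holds the GATA motif.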

How the data were processed

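Promoter-capture Hi-C was measured in 1 DMSO and 1 ponatinib library of K562 cells, harvested after 24 h. The authors deposited 1 list per library, in which each line holds a bait fragment, a partner fragment and a score, the authors' own value. Per the submitters' processing notes, coordinates are of hg38. How reads were aligned, which caller was used and what the score means is not given in the sources used here. There are no read counts in the files.

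Pairs were taken as unordered, and 1 ponatinib pair listed in both orientations was counted once. A bait is a fragment in the bait column of either list. Promoter-to-promoter pairs have baits at both ends. Genes came from RefSeq tables of GRCh38.p14 and were placed on a bait that holds either gene end. Start sites came from a promoter table with starts for 15101 autosomal genes, and starts on chromosome 8 were not used here. Partner distance and length are per distinct fragment.

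Intervals are exact binomial (Clopper-Pearson) for shares and ratios, Poisson for ends per Mb, from order statistics for medians, and Newcombe's for differences of shares, all at 95%. Region pairs came from single linkage at 1 Mb. Genes were named when they lay on the 10 most recurrent fragments, at the 10 highest scores of each list or of shared pairs, at the fragments with the largest differences, among up to 3 members per gene list, or in a fixed set of erythroid and BCR-ABL1 genes. Genes of region pairs, of the highest promoter-to-promoter pairs and of fragments with 5 pairs were chosen after their values were seen. A gene that this rule would name is not reported here. The members and all gene lists were chosen with earlier results of these data known. Scripts (Python 3.11.15, scipy 1.17.1, pandas 2.3.3) were tested on simulated data. Alternatives were scores of at least 7 or 10, lists of equal length, fewer chromosomes or fragments, looser matching and other limits.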

Additional observations from a re-analysis of the deposited data

Results flagged for a closer look

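Pairs between chromosome X and an autosome are outside the comparisons above and are a signal in data not otherwise used. There were 348 in DMSO and 358 in ponatinib. Of these 72 were identical in both lists, 20.7% of the DMSO pairs (16.6 to 25.3%) and 20.1% of the ponatinib pairs (16.1 to 24.6%). The shares of scattered pairs, 0.829% and 0.850%, are not of a like set. Scattered pairs lack the 7 chromosome pairs with dense contacts, of which 57.1% and 49.4% were identical. No chromosome pair was left out for chromosome X. Median scores of the pairs with chromosome X were 8.07 and 7.98. Chromosome 21 had 43 and 34 of them with 19 identical, chromosome 11 had 30 and 34 with 10 identical, chromosome 2 had 30 and 26 with 4 identical, and chromosome 1 had 22 and 29 with none identical.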

How the results depend on the processing

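With 1 library per group and an unknown depth, no result has a replicate check. No paired analysis was possible because each treatment has 1 library and the labels give no replicate numbers. Of 57 alternatives, 36 stayed within the counting interval or within 1.5 times of a count. The region pairs and the limit of 5 pairs were chosen after seeing the data. Lists of equal length gave a ratio of scattered pairs of 0.916 (0.868 to 0.967), an interval that excludes 1 where that of the full lists includes it, and a ponatinib median score of 6.18. The shared percentage of DMSO pairs was 1.33 when ends matched within 10 kb and 0.332 without the 10 most recurrent fragments. At scores of at least 7, where 658 and 642 pairs remain, it was 3.04, and at 10 or more, where 109 and 109 remain, 11. The scores themselves also set the medians: 7.72 in DMSO and 7.91 in ponatinib at 7 or more, and 13.4 and 14.12 at 10 or more. The promoter-to-promoter percentage at 7 or more was 1.98 in DMSO (1.06 to 3.35) and 2.18 in ponatinib (1.20 to 3.63). At 10 or more it was 0.917 in DMSO (0.0232 to 5.01) and 5.50 in ponatinib (2.05 to 11.6). The order of the lists turned at both limits, but the intervals overlap at each, so no reversal is read from it. The percentage at the 10 most recurrent fragments was 6.84 in DMSO and 6.07 in ponatinib at 7 or more, and 30.3 and 32.1 at 10 or more. The rank correlation of ends with listed baits, 0.95 over both lists, was 0.78 and 0.49. With a limit of 5 pairs 6 fragments differed at least 2-fold, and linkage at 2 Mb gave 20 region pairs in place of 11. The cause was not tested.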
